A study of Mus musculus with 4 samples.

Results

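B-cell precursor genes are described here in stromal cells sorted from mouse femurs. The 8 genes, Rag1, Rag2, Dntt, Vpreb1, Vpreb3, Igll1, Pax5 and Il7r, were chosen by name for their roles in recombination, the surrogate light chain and early B-cell identity, to read which B-cell stage the blood-cell reads of these libraries reflect. All 8 had a row among the 17230 rows of the count table, and all 8 passed the low-count filter. Bulk RNA sequencing was done on GFP-positive, tdTomato-positive cells at postnatal day 21, with 2 libraries for each of 2 origins. Hes1-derived cells (replicates 1 and 3) came from Cxcl12(GFP/+); Hes1(CreER/+); R26R(tdTomato/+) mice. Fgfr3-derived cells (replicates 2 and 3) came from mice with Fgfr3-iCreER beside Cxcl12(GFP/+) and R26R(tdTomato/+). Both groups thus carried GFP at a Cxcl12 allele and the tdTomato reporter, and both received tamoxifen at embryonic day 12.5. tdTomato marks the descendants of cells in which the Hes1-driven or Fgfr3-driven Cre was active at that time, so genotype and origin cannot be told apart. The extraction protocol names a sort on tdTomato only, and how many animals gave a library is not in the labels. The p-values therefore measure the spread between these libraries, which may be technical.

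Developing B cells assemble their immunoglobulin genes in the bone marrow, beside reticular stromal cells that make CXCL12 and interleukin 7. In pro-B cells the RAG1 and RAG2 proteins cut the heavy chain locus, and terminal transferase, the product of Dntt, adds untemplated nucleotides at the joins. A heavy chain then pairs with the surrogate light chain, made of the VpreB and lambda5 proteins from Vpreb1 and Igll1, to form the pre-B-cell receptor. These genes are switched off in mature B cells, whereas Cd79a and Cd79b, the signalling chains of the B-cell receptor and called pan-B genes here, are expressed from the pro-B stage onward. Pax5 commits cells to the B lineage and stays on until plasma cells form. Il7r encodes the interleukin 7 receptor alpha chain, which T cells and innate lymphoid cells also use.

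The promoters are shown for their early B-cell motifs and for the near copy of Vpreb1. RefSeq windows of build GRCm38.p6, from 250 bases before to 50 bases after each start site, were found for all 8 genes and for Vpreb2. They were searched on both strands for CAGGTG, the E-box preferred by the E2A protein, and for CCCNNGGG, the core of an EBF1-type motif. Of all 32817 windows, 20.2% held CAGGTG and 13.7% held CCCNNGGG. Among the 8 genes, 3 windows held CAGGTG (Rag1, Igll1 and Vpreb1) and 1 held CCCNNGGG (Igll1), so 5 held neither. These 3 windows and that of Vpreb2 are printed 5′ to 3′ in the direction of transcription, with the matches in capitals. They lie on the minus strand at chr2:101649483-101649782, chr16:16863936-16864235 and chr16:16869206-16869505, and on the plus strand at chr16:17980315-17980614.
Rag1: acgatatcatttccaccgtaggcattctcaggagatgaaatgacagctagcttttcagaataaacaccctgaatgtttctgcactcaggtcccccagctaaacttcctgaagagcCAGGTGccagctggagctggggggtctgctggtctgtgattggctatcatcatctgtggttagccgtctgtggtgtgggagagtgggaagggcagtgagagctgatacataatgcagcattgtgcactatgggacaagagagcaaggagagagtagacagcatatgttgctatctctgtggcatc
Igll1: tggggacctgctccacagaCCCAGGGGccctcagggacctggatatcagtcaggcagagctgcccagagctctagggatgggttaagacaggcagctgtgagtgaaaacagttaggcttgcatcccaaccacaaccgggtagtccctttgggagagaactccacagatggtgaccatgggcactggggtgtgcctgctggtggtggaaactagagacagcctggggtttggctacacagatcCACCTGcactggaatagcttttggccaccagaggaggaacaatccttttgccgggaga
Vpreb1: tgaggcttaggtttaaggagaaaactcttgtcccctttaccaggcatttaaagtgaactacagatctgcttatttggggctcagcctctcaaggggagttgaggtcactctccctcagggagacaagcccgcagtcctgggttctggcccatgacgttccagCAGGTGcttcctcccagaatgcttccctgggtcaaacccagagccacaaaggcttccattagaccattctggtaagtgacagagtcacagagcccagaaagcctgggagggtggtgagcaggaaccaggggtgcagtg
Vpreb2: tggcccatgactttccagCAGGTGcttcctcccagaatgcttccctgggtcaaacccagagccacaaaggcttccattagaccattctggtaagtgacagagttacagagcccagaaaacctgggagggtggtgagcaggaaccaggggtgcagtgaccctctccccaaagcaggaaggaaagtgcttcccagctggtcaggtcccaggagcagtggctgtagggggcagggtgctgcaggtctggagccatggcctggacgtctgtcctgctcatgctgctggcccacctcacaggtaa
A match is a description of the letters only. The match stands 135 bases before the start site in Rag1, 8 bases before it in Igll1 and 88 bases before it in Vpreb1, and the CCCNNGGG match of Igll1 stands 231 bases before it. The Vpreb1 and Vpreb2 windows share an identical run of 91 bases that holds the CAGGTG match of both.

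Gene positions follow GENCODE M21 on GRCm38. Rag1 (chr2:101638282-101649501, minus strand) and Rag2 (chr2:101624718-101632529, plus strand) are 5.8 kb apart, and Igll1 (chr16:16860671-16863985, minus strand) and Vpreb1 (chr16:16868403-16870843, minus strand) are 4.4 kb apart. Vpreb2, on the same chromosome, shares 18.8% of the 50-base words of the Vpreb1 transcripts, while Vpreb3 and Igll1 share none with them, so reads of Vpreb1 and Vpreb2 are in part uncertain. The strand setting of the counting is not given in the sources used here. Reads of Vpreb1 may include those of Top3b on the opposite strand, and those of Rag1 and Rag2 may include those of B230118H07Rik, which overlaps both. Top3b had 1792 and 2057 reads in the Hes1-derived libraries, against 2105 and 2073 in the Fgfr3-derived ones. B230118H07Rik had 332 and 295 reads in the Hes1-derived libraries, against 441 and 412 in the Fgfr3-derived ones. Neither row passed the test in either direction (edgeR adjusted p = 0.990 for Top3b and 0.495 for B230118H07Rik).

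Counted reads numbered 22745128 in replicate 1 and 23625327 in replicate 3 of the Hes1-derived cells, and 26025607 in replicate 2 and 26804832 in replicate 3 of the Fgfr3-derived cells. Cxcl12, the gene of the GFP reporter used for sorting, was high, at 7054 and 4178 CPM (reads scaled to library size by TMM factors) in the Hes1-derived, against 9760 and 7026 CPM in the Fgfr3-derived libraries, but the libraries also held reads of blood cells. The summed level of 11 pan-leukocyte genes was 5645 and 6518 CPM in Hes1-derived libraries, against 1611 and 3332 CPM in Fgfr3-derived libraries. Of these 11 genes 7 rose in Hes1-derived libraries, but only 1 did without Hes1-derived replicate 3, 4 without Hes1-derived replicate 1, none without Fgfr3-derived replicate 2, and all 11 without Fgfr3-derived replicate 3 or with DESeq2. The count was 3 after scaling to stromal genes and 2 after scaling to eGFP reads.

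All 8 B-cell precursor genes rose in Hes1-derived libraries, between 3.73-fold for Pax5 and 6.22-fold for Rag1. The 8 genes together took 0.0446% of counted reads in Hes1-derived replicate 1 (95% exact binomial interval 0.0437% to 0.0455%), and the share in replicate 3 was 0.0535% (0.0526% to 0.0545%). They took 0.00808% in Fgfr3-derived replicate 2 (0.00774% to 0.00843%) while replicate 3 had 0.0121% (0.0117% to 0.0126%). Only counting error enters these intervals. By the quasi-likelihood test of edgeR, with Benjamini-Hochberg adjustment over 14330 genes, 5.24% of all tested genes were called higher in Hes1-derived libraries, against 8 of the 8 members. In each of the 8 genes both Hes1-derived libraries lay above both Fgfr3-derived libraries, which held for 29.8% of all tested genes. In bulk libraries, fewer B-lineage cells and less RNA per cell cannot be told apart.

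**Figure D1:**
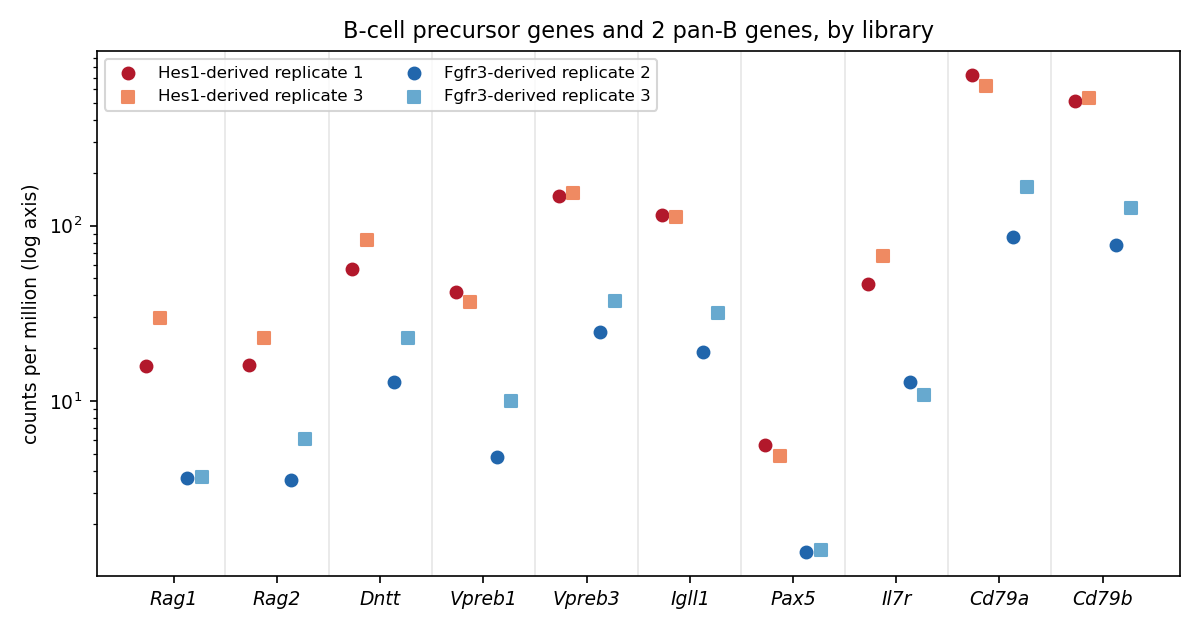
CPM (TMM-scaled, log axis) of the 8 B-cell precursor genes and of Cd79a and Cd79b; each point is 1 library, with the Hes1-derived libraries left of the Fgfr3-derived ones. In every gene both Hes1-derived points lie above both Fgfr3-derived points, from Pax5 at 5.63 and 4.83 against 1.38 and 1.41 CPM to Cd79a at 727 and 623 against 86.4 and 166 CPM.

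The recombination genes, and with them Il7r, differed most between the Hes1-derived libraries. Rag1, the catalytic subunit of the recombinase, had 15.8 CPM in Hes1-derived replicate 1 and 29.9 CPM in replicate 3, against 3.63 CPM in Fgfr3-derived replicate 2 and 3.71 CPM in replicate 3, a log2 fold change of 2.64 ± 0.40 (SE, n = 2 and 2; edgeR adjusted p = 0.0169). The Fgfr3-derived libraries were almost equal, while Hes1-derived replicate 3 stood well above replicate 1. Rag2, its partner subunit, had 16.0 and 22.9 CPM in the Hes1-derived libraries, against 3.55 and 6.08 CPM in the Fgfr3-derived ones (2.01 ± 0.39, edgeR adjusted p = 0.0256). Dntt was the highest of these 3 genes, also per length, with 56.6 and 82.9 CPM in the Hes1-derived libraries, against 12.9 and 22.9 CPM in the Fgfr3-derived ones (1.96 ± 0.34, edgeR adjusted p = 0.0209). All 3 genes were highest in Hes1-derived replicate 3, and for each the groups did not overlap. Rag2 lost its call without Hes1-derived replicate 3 (log2 fold change 1.73, edgeR adjusted p = 0.0996), and again without Fgfr3-derived replicate 2 (1.70, edgeR adjusted p = 0.0747). Dntt did so in the same fits (1.66 and 1.63, edgeR adjusted p = 0.0648 and 0.0505).

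Vpreb1, Vpreb3 and Igll1 differed little between the Hes1-derived libraries, while the Vpreb1 copy Vpreb2 differed more. Vpreb3, which encodes a protein related to VpreB, was the highest member, also per length, with 148 and 154 CPM in the Hes1-derived libraries, against 24.7 and 37.3 CPM in the Fgfr3-derived ones (log2 fold change 2.28 ± 0.26, edgeR adjusted p = 0.0130). Igll1, the gene of lambda5, had 115 and 111 CPM in the Hes1-derived libraries, against 19.1 and 31.9 CPM in the Fgfr3-derived ones (2.15 ± 0.29, edgeR adjusted p = 0.0161). Vpreb1, the gene of its partner VpreB1, had 42.1 and 36.7 CPM in the Hes1-derived libraries, against 4.81 and 10.1 CPM in the Fgfr3-derived ones (2.41 ± 0.38, edgeR adjusted p = 0.0187). In all 3 genes Fgfr3-derived replicate 2 was the lowest library. Vpreb2 had 99 and 61 reads in the Hes1-derived libraries, against 13 and 27 reads in the Fgfr3-derived ones, and did not pass (2.13 ± 0.65, edgeR adjusted p = 0.0749), though DESeq2 called it higher (2.16, adjusted p = 0.0278). The calls of Vpreb1, Vpreb3 and Igll1 held when any 1 library was left out, and the log2 fold change of Vpreb1 was then between 1.99 without Fgfr3-derived replicate 2 and 3.08 without Fgfr3-derived replicate 3.

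Pax5 and Il7r belong to neither the recombination nor the surrogate light chain genes. Il7r had 46.6 and 67.2 CPM in the Hes1-derived libraries, against 12.9 and 10.8 CPM in the Fgfr3-derived ones (log2 fold change 2.27 ± 0.28, edgeR adjusted p = 0.0147). Like the recombination genes it was highest in Hes1-derived replicate 3. Pax5 was the lowest member, also per length, with 128 and 120 reads in the Hes1-derived libraries, against 35 and 37 in the Fgfr3-derived ones, or 5.63 and 4.83 CPM against 1.38 and 1.41 CPM (1.90 ± 0.46, edgeR adjusted p = 0.0418). Its call ended when any 1 library was left out, with log2 fold changes between 1.79 and 2.01 and edgeR adjusted p between 0.0691 and 0.125. It also ended after scaling to stromal genes (2.43, edgeR adjusted p = 0.0549) or to eGFP reads (2.71, edgeR adjusted p = 0.0629), where the fold was larger. The number of members called higher was accordingly 7 without Hes1-derived replicate 1, 5 without Hes1-derived replicate 3, 5 without Fgfr3-derived replicate 2 and 7 without Fgfr3-derived replicate 3.

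Per kilobase of merged exon, the order of levels was nearly the same in both groups. In Hes1-derived libraries Vpreb3 stood first at 176 ± 4.67 CPM per kb (SD, n = 2), then Igll1 at 52.4 ± 1.22, Vpreb1 at 32.9 ± 3.20, Dntt at 30.4 ± 8.10, Il7r at 12.2 ± 3.13, Rag2 at 5.68 ± 1.42, Rag1 at 3.45 ± 1.51 and Pax5 at 0.591 ± 0.0634 CPM per kb. In Fgfr3-derived libraries the levels ran from 36.1 ± 10.4 CPM per kb for Vpreb3 and 11.8 ± 4.19 for Igll1 to 0.555 ± 0.00865 for Rag1 and 0.158 ± 0.00275 for Pax5 (SD, n = 2). Vpreb1 and Dntt were the neighbours whose libraries overlapped in both groups, and their means changed places in Fgfr3-derived libraries, at 6.20 ± 3.09 for Vpreb1 and 7.81 ± 3.10 CPM per kb for Dntt. Igll1 also overlapped with Dntt in Fgfr3-derived libraries. With the length of the longest transcript in place of merged exons, Vpreb1 stood at 51.0 CPM per kb in Hes1-derived libraries, close to Igll1 at 52.4. Cd79a and Cd79b stood above all 8 members, at 463 ± 50.7 CPM per kb for Cd79a and 365 ± 10.9 for Cd79b in Hes1-derived libraries (SD, n = 2).

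**Figure D2:**
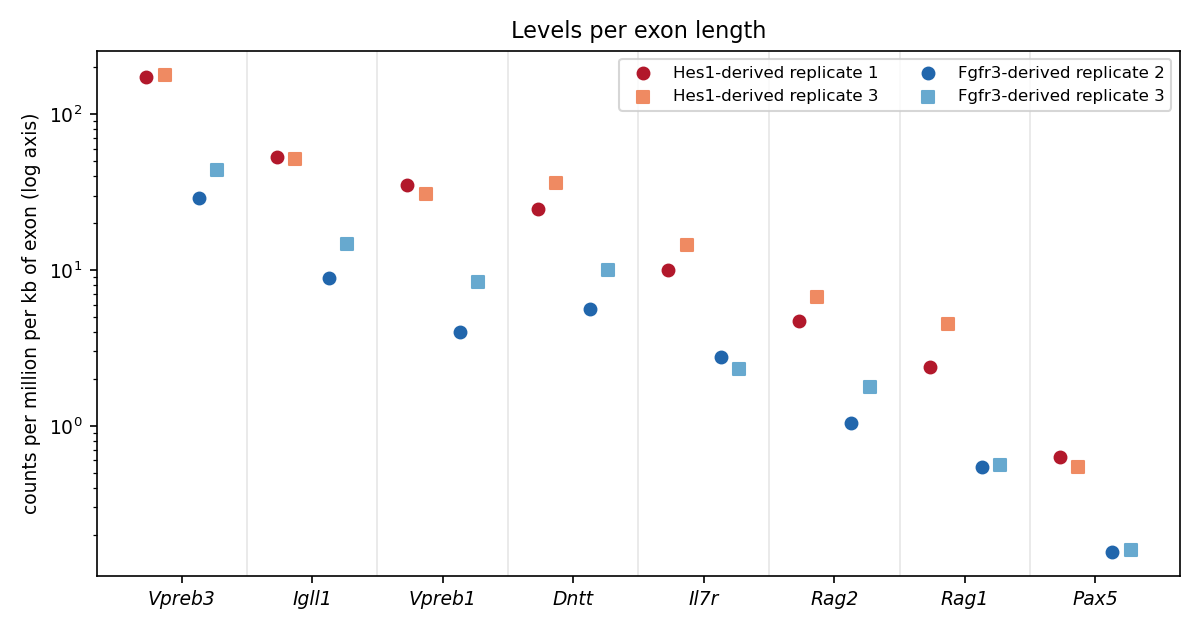
Levels per kilobase of merged exon (TMM-scaled CPM per kb, log axis) of the 8 genes in falling order of their mean in Hes1-derived libraries; each point is 1 library. Vpreb3 is highest in every library, at 172 and 179 in Hes1-derived and 28.8 and 43.5 CPM per kb in Fgfr3-derived libraries, and Pax5 is lowest.

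Set against the pan-B reads of the same library, no member was called in either direction. Both pan-B genes rose by sizes within the range of the members, with log2 fold changes of 2.42 ± 0.35 for Cd79a and 2.36 ± 0.29 for Cd79b (SE, n = 2 and 2; edgeR adjusted p = 0.0164 and 0.0147). Their summed reads were 28179 and 28713 in the Hes1-derived libraries, against 4163 and 7653 in the Fgfr3-derived ones. Per 100 pan-B reads, the 8 members had 36.0 and 44.1 reads in the Hes1-derived libraries, against 50.5 and 42.5 reads in the Fgfr3-derived ones, an overlap between the groups. The fit was then repeated with library sizes set by these pan-B reads, which asks whether a gene differs beyond the pan-B reads. The median of all tested genes moved to −2.53, and 88.1% of all tested genes were called lower and 0.0558% higher in Hes1-derived libraries. Of the 8 members none was called in either direction by edgeR, none had an unadjusted p under 0.05, and DESeq2 with the same library sizes called none. Their log2 fold changes ranged between −0.59 for Pax5 (95% interval −2.27 to 1.08) and 0.16 for Rag1 (−1.14 to 1.45), with a median of −0.26. Dispersions were estimated anew over all tested genes in this fit, so the intervals do not rest on each gene's own spread alone. Every member's standard error was larger than with TMM library sizes, for Vpreb1 0.606 against 0.38. Each of the 8 intervals reached below −1, so a level lower by 2-fold in Hes1-derived libraries lies within each interval. The absence of calls therefore does not show equal levels.

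**Figure D3:**
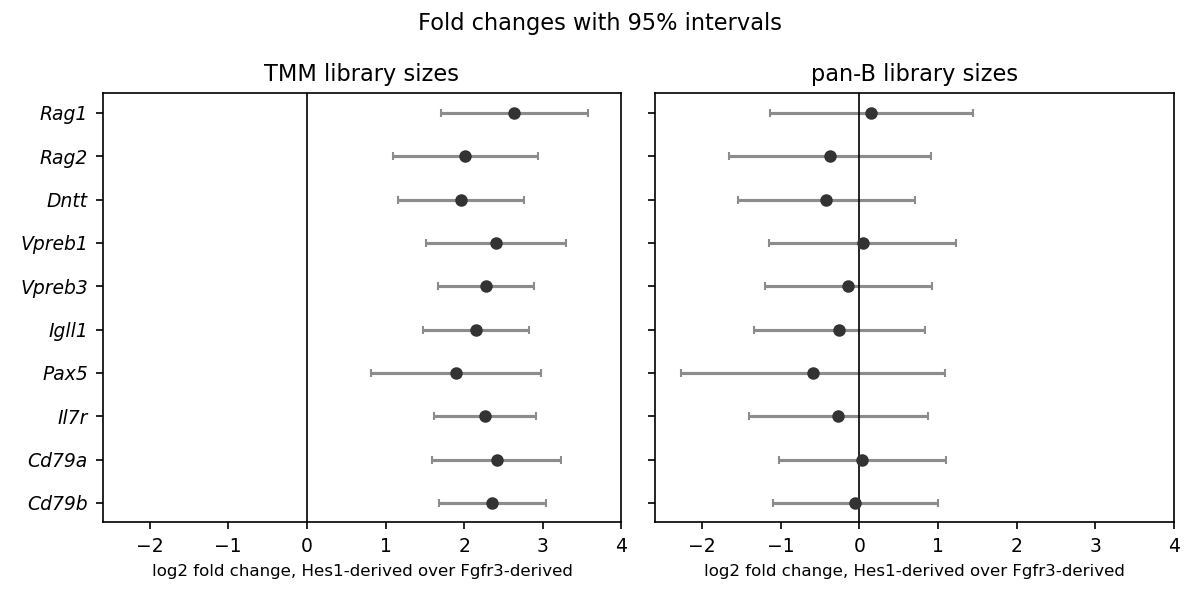
Log2 fold changes (Hes1-derived over Fgfr3-derived) with 95% intervals for the 8 genes and both pan-B genes, with TMM library sizes on the left and with library sizes from pan-B reads on the right. On the left every interval lies above 0, from Pax5 (0.82 to 2.98) to Rag1 (1.70 to 3.57). On the right every interval of the 8 genes includes 0, as do those of Cd79a and Cd79b, whose values near 0 follow from the scaling itself.

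The genes differed in how their ratio to pan-B reads varied among the 4 libraries. Vpreb1 was the steadiest, at 3.40 and 3.17 reads per 100 pan-B reads in the Hes1-derived, against 2.93 and 3.44 in the Fgfr3-derived libraries. Igll1 had 9.29 and 9.63 in the Hes1-derived, against 11.6 and 10.9 in the Fgfr3-derived libraries, and Vpreb3 had 11.9 and 13.3 against 15.1 and 12.8. The highest ratio of a gene was at most 1.26 times its lowest for these 3 genes. Rag1 varied 2.04-fold, with 1.27 in Hes1-derived replicate 1 (95% exact binomial interval 1.15 to 1.41), 2.58 in its replicate 3 (2.40 to 2.78), and 2.21 in Fgfr3-derived replicate 2 (1.78 to 2.72) and 1.27 in replicate 3 (1.03 to 1.55). Il7r varied 2.12-fold, with 3.76 and 5.81 in the Hes1-derived, against 7.83 and 3.70 in the Fgfr3-derived libraries. For both genes Hes1-derived replicate 3 and Fgfr3-derived replicate 2 were the high libraries, and the other library of each group was low. Rag2 and Dntt were lowest in Hes1-derived replicate 1, Rag2 at 1.29 and 1.98 in Hes1-derived against 2.16 and 2.08 in Fgfr3-derived libraries, and Dntt at 4.57 and 7.17 against 7.86 and 7.84. Pax5 was high in Fgfr3-derived replicate 2, at 0.841 (0.585 to 1.17, from 35 reads), and between 0.418 and 0.484 in the other libraries. For Rag2, Dntt, Igll1 and Pax5, 4 of the 8 members, both Hes1-derived libraries thus lay below both Fgfr3-derived ones, as they did per pan-B read for 95.3% of all tested genes, and for the other 4 members the groups overlapped.

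**Figure D4:**
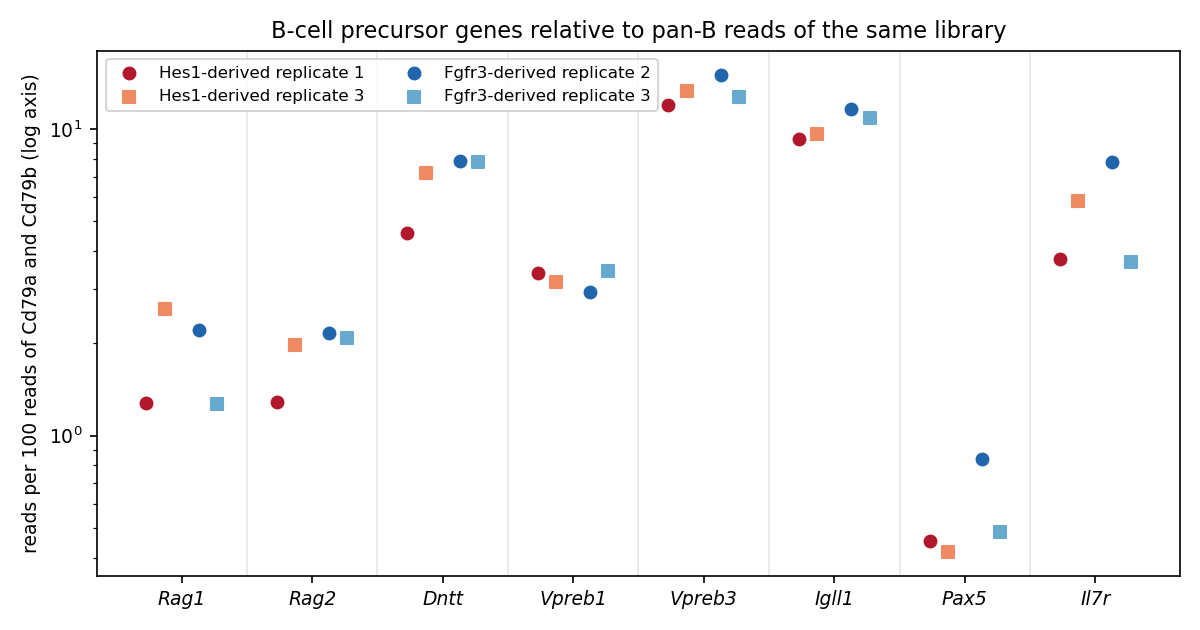
Reads of each B-cell precursor gene per 100 reads of Cd79a and Cd79b in the same library (log axis); each point is 1 library. Vpreb1 stays between 2.93 and 3.44 in all 4 libraries, while Rag1 spans 1.27 to 2.58 with a high and a low library in each group.

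Markers of later B-cell stages also rose. Of 15 tested markers of immature and mature B cells 11 were higher and none lower in Hes1-derived libraries. Over all tested genes 5.24% were called higher and 6.56% lower. The list's median log2 fold change was 2.23, beside 2.21 for the 8 members and −0.02 for all tested genes. Faim3, which encodes the IgM Fc receptor, showed 2.57 ± 0.25, the inhibitory coreceptor gene Cd22 showed 2.47 ± 0.26, and Ms4a1, the gene of CD20, showed 2.37 ± 0.27 (SE, n = 2 and 2; edgeR adjusted p = 0.0130 for each). Tnfrsf13c, the gene of the BAFF receptor that sustains mature B cells, had 86.2 and 86.6 CPM in the Hes1-derived libraries, against 16.6 and 22.2 CPM in the Fgfr3-derived ones. Per 100 pan-B reads Ms4a1 had 12.6 and 11.1 reads in the Hes1-derived libraries, against 13.6 and 11.2 reads in the Fgfr3-derived ones. With pan-B library sizes 14 of the 15 markers were not called, while the complement regulator gene Cd55, singled out with its values known, was lower. In that fit 88.1% of all tested genes were called lower and 0.0558% higher. Cd55 was also the list's member with a negative log2 fold change before that scaling (−0.49, edgeR adjusted p = 0.257). The 8 members and these later markers thus all had reads in all 4 libraries.

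Of 15 tested pro-B and pre-B stage markers outside the 8 genes 6 were higher and none lower (median 1.37), beside 5.24% and 6.56% of all tested genes. With DESeq2 11 were higher. Blnk, the adaptor of the pre-B-cell receptor, showed 2.18 ± 0.30, Ly6d, a surface mark of B-committed lymphoid progenitors, 2.36 ± 0.33, and Cd24a 1.75 ± 0.26. Kit (−0.65 ± 0.29, edgeR adjusted p = 0.182) and Sox4 (−0.21 ± 0.22, edgeR adjusted p = 0.575) were the list's members with a negative log2 fold change. With pan-B library sizes 6 of these 15 markers were called lower and none higher, beside 88.1% and 0.0558% of all tested genes. The count of higher markers with TMM library sizes was 2 without Fgfr3-derived replicate 2 and 3 without Hes1-derived replicate 3. Of 16 B-lineage transcription factor genes 11 were higher and none lower (median 1.5), led by Irf4 (2.49 ± 0.23), Pou2af1 (2.30 ± 0.26) and Bach2 (2.05 ± 0.27). This count of higher genes fell when either of those same libraries was left out and was 6 after scaling to eGFP reads. Ebf1 (−0.09 ± 0.35, edgeR adjusted p = 0.893) and Tcf3 (0.61 ± 0.33, edgeR adjusted p = 0.271), the genes of EBF1 and E2A, were not called. With pan-B library sizes both were among 5 of the 16 genes called lower (−2.74 and −1.77). Ebf1 had 217 and 237 CPM in the Hes1-derived libraries, against 331 and 154 CPM in the Fgfr3-derived ones. Kit had 33.0 and 45.8 CPM in the Hes1-derived, against 75.4 and 48.6 CPM in the Fgfr3-derived libraries. Which cells gave the reads of Ebf1 and Kit was not tested, so these values do not show their levels in B-lineage cells. Of 10 pre-B-cell receptor signalling genes 8 were higher (median 1.53, beside 1.48 for the pan-leukocyte genes), against 5.24% of all tested genes. Among them were the kinase genes Blk (2.09 ± 0.29) and Syk (1.86 ± 0.30). Their count fell when Fgfr3-derived replicate 2 or Hes1-derived replicate 3 was left out. It was 5 after scaling to stromal genes and 4 after scaling to eGFP reads. With pan-B library sizes 4 of the 10 genes were called lower and none higher, beside 88.1% and 0.0558% of all tested genes.

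Partner genes of Il7r and of the recombination genes were read beside all tested genes, of which 5.24% were called higher and 6.56% lower. Among 10 genes of the interleukin 7 receptor pathway Il2rg, which encodes the chain that pairs with the Il7r product, was higher (1.18 ± 0.26, edgeR adjusted p = 0.0332), and it lost its call without Fgfr3-derived replicate 2 or either Hes1-derived replicate, and after scaling to stromal genes or eGFP. Il7, the ligand made by stroma, had 77.8 and 67.7 CPM in the Hes1-derived libraries, against 163 and 73.1 CPM in the Fgfr3-derived ones, where 1 library stood apart (−0.70 ± 0.36, edgeR adjusted p = 0.248). Of 12 genes for joining and repair of the cut ends, Xrcc6 (1.08 ± 0.25) and Polm (1.11 ± 0.28) were higher and Xrcc5, the gene of the Ku80 partner of the Xrcc6 product, was lower (−0.96 ± 0.24). None of these 3 calls remained without Fgfr3-derived replicate 2, without either Hes1-derived replicate or after scaling to stromal genes or eGFP, and the call of Xrcc5 also ended without Fgfr3-derived replicate 3 and with library totals. Their list medians were −0.37 and 0.55.

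**Figure D5:**
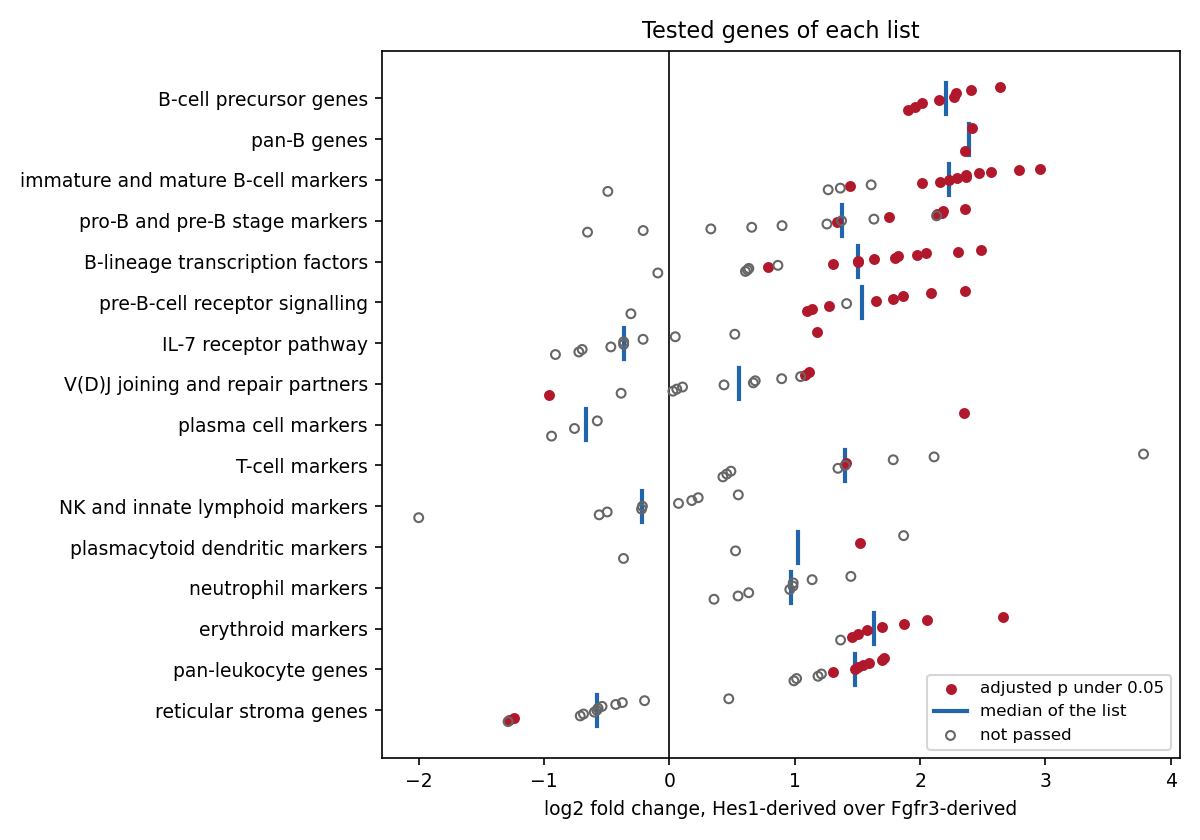
Log2 fold changes (Hes1-derived over Fgfr3-derived, edgeR with TMM library sizes) of the tested genes of each list; filled points passed an adjusted p of 0.05 and the bar is the list's median. The 8 B-cell precursor genes, the pan-B genes and the mature B-cell markers centre at 2.21, 2.39 and 2.23, and the reticular stroma genes at −0.58.

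Other cells that can express Rag1, Dntt or Il7r were read by their own markers. The defining T-cell genes were not all near 0. Cd3d had 289 and 427 reads in the Hes1-derived, against 97 and 196 in the Fgfr3-derived libraries, and Cd4 had 118 and 134 against 100 and 94. Others were low: Bcl11b had 2 and 10 reads in the Hes1-derived, against 5 and 1 in the Fgfr3-derived libraries, Ptcra 3 and 14 against 4 and 4, and Cd3e 21 and 21 against 0 and 18. The summed level of 13 T-cell markers was 67.2 and 72.1 CPM in the Hes1-derived libraries, against 24.6 and 35.3 CPM in the Fgfr3-derived ones, of which Lck, also named by its test (1.41 ± 0.33, edgeR adjusted p = 0.0394), made up 35.0 and 34.4 CPM in the Hes1-derived, against 9.18 and 17.0 CPM in the Fgfr3-derived libraries. Lck lost its call without Fgfr3-derived replicate 2 or either Hes1-derived replicate, and DESeq2 called 4 of the T-cell markers. The 9 markers of natural killer and innate lymphoid cells summed to 26.3 and 24.0 CPM in the Hes1-derived libraries, against 30.0 and 30.5 CPM in the Fgfr3-derived ones, and none was called by edgeR, DESeq2 or limma-voom, while 1 had an unadjusted p under 0.05. Il1rl1 had 8.31 and 9.99 CPM in the Hes1-derived, against 17.6 and 8.22 CPM in the Fgfr3-derived libraries. Among 5 plasmacytoid dendritic cell markers Siglech was higher, at 13.8 and 17.1 CPM in the Hes1-derived, against 3.90 and 6.88 CPM in the Fgfr3-derived libraries (1.52 ± 0.39, edgeR adjusted p = 0.0482), a call that ended without Fgfr3-derived replicate 2 or either Hes1-derived replicate, and after scaling to stromal genes or eGFP. The list summed to 23.3 and 26.0 CPM in the Hes1-derived, against 7.69 and 14.3 CPM in the Fgfr3-derived libraries. The part of these cells in the levels of Rag1, Dntt and Il7r was not tested.

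Most tested erythroid and pan-leukocyte genes were also called higher in Hes1-derived libraries. Of 8 erythroid markers 7 were higher (median 1.63; 4 without Fgfr3-derived replicate 2 or after scaling to stromal genes, 3 after scaling to eGFP), with Alas2, the haem synthesis enzyme gene of red cell precursors, at 2.66 ± 0.43. Of 8 neutrophil genes none was called by edgeR, while 2 had an unadjusted p under 0.05 and DESeq2 called 3 and limma-voom 1 (median 0.97; 6 called without Fgfr3-derived replicate 3), with the granule gene Ngp at 8968 and 10190 CPM in the Hes1-derived, against 2617 and 7232 CPM in the Fgfr3-derived libraries. With library sizes set by the pan-leukocyte genes no member was called and none had an unadjusted p under 0.05, while 0.0837% of all tested genes were called higher and 33.3% lower, and the median of all tested genes was −1.50. The log2 fold changes of the members were then all positive, between 0.45 ± 0.94 for Pax5 and 1.14 ± 0.77 for Rag1 (SE, n = 2 and 2). Of 13 reticular stroma genes 2 were lower in Hes1-derived libraries, the cytokine gene Csf1 (−1.24 ± 0.25) and the transcription factor gene Foxc1 (−1.28 ± 0.29). None was lower without Hes1-derived replicate 3 or Fgfr3-derived replicate 2, and 5 were without Fgfr3-derived replicate 3. The part of leukocyte content in the members' levels beyond the B lineage was not tested.

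By the shape of their profile over the 4 libraries, the tested genes nearest to the mean of the 8 members were Il10ra, Bach2, Il21r, Klhl6, Trp53i11, Rhoh, Bfsp2, Rasgrp1, Cxcr4 and Tnfrsf13c. Their root mean square distance on the log2(CPM + 1) scale was between 0.049 for Il10ra and 0.097 for Tnfrsf13c. The members themselves lay farther from their own mean, between 0.146 for Vpreb3 and 0.396 for Pax5. The number of genes closer than a member ran from 29 for Vpreb3 to 410 for Pax5. The named genes were picked as the nearest of those with a mean of at least 5 CPM. The members were chosen by name and without that limit, so their larger distances were nearly fixed in advance. Bach2 encodes a repressor of plasma cell fate and Cxcr4 the receptor of CXCL12. With 4 libraries this likeness is a description.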

How the data were processed

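Per the series design text, RNA was amplified with a SMARTer kit, and per the labels' protocols libraries were made with Nextera XT. Per the submitters' processing notes, which give no role or order, the build was mm10 and the tools were HTSeq, DESeq2, Cuffdiff, Cufflinks, Bowtie2 2.2.1, TopHat2 2.0.13 and FastQC; annotation and strand setting are not given in the sources used here. The extraction protocol also names a single-cell loading, but each library is 1 column, so the values were treated as bulk. The deposited counts are whole reads per gene symbol. The deposited log2 values are the authors' regularized log2 of counts, per the file names, and served 1 alternative (limma-trend). Another deposited table, scaled for depth, was not used.

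The origins were compared by edgeR 4.0.16 (R 4.3.3; quasi-likelihood F test, TMM factors, robust dispersions, minimum count 10), which kept 14330 genes holding at least 99.96% of reads. P-values were adjusted by Benjamini-Hochberg over all of them with a threshold of 0.05. The standard error is the size of the log2 fold change divided by the root of F, with 2 residual degrees of freedom before sharing across genes. Library sizes were also set by the summed reads of Cd79a and Cd79b, a reference chosen after seeing the data in place of the sum first intended and of 1 variant of it, which used 1 more gene that is not reported here. Alternatives set library sizes by eGFP reads, the reticular stroma list or the pan-leukocyte list, left out each library, or used other factors, filters, limma 3.58.1 and DESeq2 1.42.0. Exon lengths came from GENCODE M21. The edgeR, DESeq2 and limma-voom fits were tested on simulated data. There the pan-B genes did not differ between the groups, so the pan-B scaling was not tested under a shift like the observed one. The 8 genes and all lists were chosen with earlier results of these data known. Of 162 list entries 2 had no row and 5 matched an older symbol. Named genes are the members, Vpreb2, Il7, the pan-B genes, up to 4 called members of each list and direction (else the 2 most abundant) and the 10 nearest profiles with a mean of at least 5 CPM; some of these are not reported.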

Additional observations from a re-analysis of the deposited data

How the results depend on the processing

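All 17 alternatives kept at 0 the count of members called lower. The 8 higher calls among the members became 0 with pan-B and 0 with pan-leukocyte library sizes, and between 5 and 7 when 1 library was left out; the other 11 alternatives gave 7 or 8. With pan-B library sizes, a scaling chosen after seeing the data, Rag2 (−0.37), Dntt (−0.42), Vpreb3 (−0.14), Igll1 (−0.25), Pax5 (−0.59), Il7r (−0.27), Vpreb2 (−0.24) and Cd79b (−0.049) turned negative, which for Cd79b follows from the scaling itself; no negative value of these passed the test. Scaling to stromal genes and to eGFP moved the median of all genes up by 0.56 and 0.86 (log2), and the 751 higher and 940 lower calls over all genes became 433 and 68, and 324 and 19. DESeq2 made 1429 higher and 1557 lower calls; leaving out 1 library gave between 183 and 1225 higher and between 181 and 998 lower calls. Under the pan-B fit, 7 alternatives called no member. There, leaving out 1 library moved Rag1 between −0.44 (no Hes1-derived replicate 3) and 0.61, Vpreb1 between −0.065 (no Fgfr3-derived replicate 2) and 0.17, Il7r between −0.71 and 0.37 (no Fgfr3-derived replicate 2) and Vpreb2 between −0.65 and 0.076 (no Hes1-derived replicate 3). Rag1 was also negative (−0.20) without Fgfr3-derived replicate 3, Vpreb1 negative (−0.006) and Il7r positive (0.014) without Hes1-derived replicate 1; the cause was not tested. Of the 510 counts of the other lists under alternatives, 116 moved by over 1.5 times, or to or from 0. No paired analysis was possible because the groups share 1 replicate number only. Depth limits Pax5 and Vpreb2 most, with at most 37 and 27 reads in a Fgfr3-derived library.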

Other observations

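Of 4 tested plasma cell markers edgeR called 1 higher and none lower in Hes1-derived libraries (median log2 fold change −0.67). Sdc1 (−0.94), Prdm1 (−0.76) and Xbp1 (−0.58) were negative. Which cells gave their reads was not tested, so the median does not show fewer plasma cells. DESeq2 called 1 lower, and without Hes1-derived replicate 1 edgeR called 2 higher and 1 lower. Igj, which encodes the J chain of secreted IgM and IgA and was named after its values were seen, had 3 and 1304 reads in Hes1-derived replicates 1 and 3, against 2 and 4 reads in Fgfr3-derived replicates 2 and 3. It did not pass the low-count filter, since 1 library held nearly all of its reads. The B-cell endoplasmic reticulum gene 2010001M09Rik (Mzb1) had 72.2 and 88.3 CPM in the Hes1-derived libraries, against 15.0 and 16.4 CPM in the Fgfr3-derived ones (log2 fold change 2.35 ± 0.23, SE, n = 2 and 2; edgeR adjusted p = 0.0130), and so did not show the same split between the Hes1-derived libraries.

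Of the 15 pro-B and pre-B stage markers 10 were highest in Hes1-derived replicate 3, where Rag1 was highest, 3 in Hes1-derived replicate 1 and 2 in Fgfr3-derived replicate 2. The share of all tested genes highest in each library was not computed. The summed pan-leukocyte level was also highest in Hes1-derived replicate 3, at 6518 CPM, against 5645 CPM in Hes1-derived replicate 1 and 1611 and 3332 CPM in the Fgfr3-derived libraries. Among the 15 markers, the widest splits toward Hes1-derived replicate 3 over replicate 1 were those of the pre-B genes Il2ra and Arpp21, also named after their values were seen. Vpreb2 (4.35 and 2.46 CPM in Hes1-derived replicates 1 and 3), Ccnd3 (993.5 and 911.8), Flt3 (16.75 and 15.35) and Sox4 (354.9 and 340.4) went the other way. Il2ra had 17.5 and 34.1 CPM in Hes1-derived replicates 1 and 3, against 4.38 and 7.38 CPM in Fgfr3-derived replicates 2 and 3. Arpp21 had 4.22 and 8.26 CPM in the Hes1-derived, against 1.62 and 1.15 CPM in the Fgfr3-derived libraries. Recombination genes had 29.0 and 44.9 reads per 100 reads of Vpreb1, Vpreb3 and Igll1 in Hes1-derived replicates 1 and 3, against 41.3 and 41.3 in Fgfr3-derived replicates 2 and 3, so that Hes1-derived replicate 1 stood apart.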
